A study of Mus musculus with 16 samples.

Results

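The 7 Ctnnb1-mutated liver tumours of a mouse liver tumour study were compared with one another, to describe which microRNAs differed most and least between tumours of 1 mutation and 1 treatment and which moved together. They were 7 of 16 samples of the study, each on its own array, and no other group entered. A microRNA was a member of the set described when at least 1 of its probes was detected in all 7 tumours, where detected means that most of the probe's spots were well above background. This held for 82 of 566 mouse microRNAs on the array.

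All 7 tumours came from the livers of C3H/HeJ males, which belong to an inbred strain prone to liver tumours. Per the series' design text they had been initiated with the carcinogen diethylnitrosamine (DEN) and promoted with oral phenobarbital, a drug that favours the growth of hepatocyte tumours with an active beta-catenin pathway. The sources give the dosing in different ways. The series' design text gives 1 injection of 10 or 90 µg/g at 2 or 6 weeks of age and a diet with 0.05% phenobarbital for 28 to 36 weeks. The sample labels give 27 weeks of diet, and the shared protocol text 28 days of dosing through the drinking water. Which of these applied to a given tumour is not settled. The labels do not name the Ctnnb1 mutation of each tumour, nor whether 2 tumours came from 1 animal, so the spread given here is a spread between samples. The tumours are called T1 to T7 after their replicate numbers, which carry no order.

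MicroRNAs are short RNAs that pair through their seed, bases 2 to 8, with target transcripts and repress them. Many are cut from 1 longer transcript together with their neighbours, so that a genomic cluster can be read as 1 transcription unit. Others share a seed while lying on different chromosomes, and these families share targets but not promoters. From each hairpin precursor 2 strands can be used, and 1 of them can carry a star in the names of this array. The star did not always mark the dimmer strand in these tumours. miR-299* was a member while miR-299 was detected in T3 only, whereas miR-136 was a member and miR-136* was detected in T3 only. The Dlk1-Dio3 region is an imprinted domain in which many microRNA hairpins are expressed from the maternal chromosome, and it has been studied in mouse liver in connection with phenobarbital and beta-catenin.

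The sequences below belong to the microRNAs on which the results turn, and capitals mark the seed. They come from RefSeq (build GRCm38.p6), which held both the sequence and the hairpin location of 70 of the 82 members under their current names. The first 7 are the members from the Dlk1-Dio3 region on chromosome 12, and no 2 of them share a seed.
miR-127: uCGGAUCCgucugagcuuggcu
miR-136: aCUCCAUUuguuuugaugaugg
miR-379: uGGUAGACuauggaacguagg
miR-299*: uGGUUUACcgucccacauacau
miR-494: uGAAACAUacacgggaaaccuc
miR-376b: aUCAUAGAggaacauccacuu
miR-377: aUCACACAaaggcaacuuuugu
The next are let-7 sequences, shown because near-identical members behaved differently.
let-7a: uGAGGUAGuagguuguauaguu
let-7f: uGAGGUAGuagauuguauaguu
let-7d: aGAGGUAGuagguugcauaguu
let-7c: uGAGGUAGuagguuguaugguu
let-7b: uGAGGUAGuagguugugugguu
let-7g: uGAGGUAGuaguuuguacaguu
let-7i: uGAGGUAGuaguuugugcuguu
The last are 2 pairs that share a seed and 1 pair that shares a locus but no seed.
miR-26a: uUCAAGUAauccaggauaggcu
miR-26b: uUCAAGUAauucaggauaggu
miR-20a: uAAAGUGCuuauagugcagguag
miR-20b: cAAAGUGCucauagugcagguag
miR-193: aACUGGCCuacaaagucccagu
miR-365: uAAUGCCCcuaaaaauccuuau

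Between 95 (T5) and 117 (T3 and T7) microRNAs were detected in a tumour, and 0 spots were saturated. The 75th percentile used for scaling lay between 402.4 (T5) and 837.9 (T1) intensity units before scaling. Correlations between 2 tumours across the 82 members ran from 0.891 to 0.983. All 7 arrays were on 1 slide, T1 to T3 with the first and T4 to T7 with the second block index in the scanner headers. With 3 and 4 tumours, a block holds too few for a correlation of its own. The tissue label was checked on cell-type lists: 8 of 8 hepatocyte microRNAs were members, among them miR-122, the main microRNA of hepatocytes and the brightest member (lowest 13.20, median 13.84, highest 14.27 on the log2 scale). Of the lists for other cells, 3 of 6 leukocyte, 2 of 3 red blood cell, 1 of 2 endothelial, 1 of 6 mesenchymal and 0 of 6 biliary microRNAs were members.

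The median member had an SD of 0.34 (log2, n = 7), with quartiles of 0.27 and 0.45, and its highest tumour stood 1.98-fold above its lowest. The range reached 2-fold for 41 members (50% of the 82) and 4-fold for 9 (11%). Spots of a probe on 1 array left a median standard error of 0.03, and the median member's SD was 12.5 times its own. The smallest such ratio was 1.58, for miR-30b. Each tumour had 1 array, so the standard error holds no difference between arrays in labelling or hybridisation, whereas the SD does. The ratio can therefore not tell tumours from arrays. For 45 members measured by more than 1 probe, 49 pairs of probes could be compared over the tumours, and the median correlation was 0.980, the lowest 0.752 for miR-23b. Such probes share the labelled RNA and are not replicates. Dimmer members varied slightly more, with a median SD of 0.39 against 0.29 for the 41 brighter ones and a correlation of -0.277 between level and SD across the 82 members, which are not independent replicates.

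**Figure D1:**
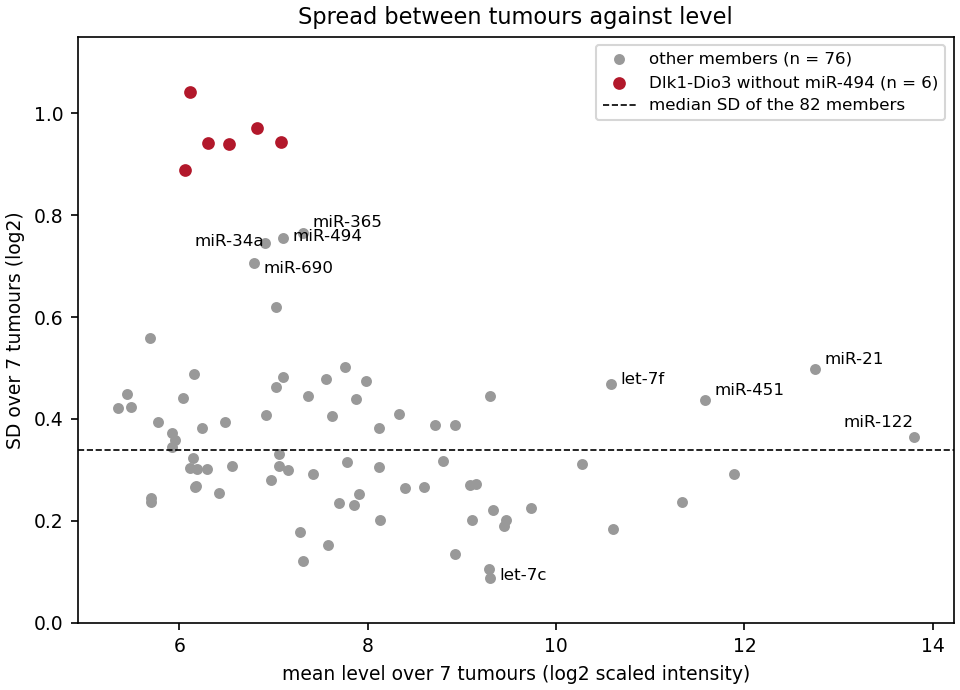
SD over the 7 tumours (log2, vertical axis) against the mean level (log2 scaled intensity, horizontal axis) for the 82 members, 1 point each. The 6 members from Dlk1-Dio3 other than miR-494 (red) have SDs from 0.89 to 1.04 at mean levels where most members lie near the median of 0.34 (dashed line).

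The largest differences between tumours belonged to the imprinted Dlk1-Dio3 microRNAs. The 6 members with the largest SD all came from this region: miR-376b (SD 1.04), miR-136 (0.97), miR-379 (0.94), miR-127 (0.94), miR-299* (0.94) and miR-377 (0.89). They also made up 6 of the 9 members with a range of at least 4-fold. With normexp background correction, which adds an offset to the signals, their SDs were smaller (0.55 to 0.68) and 0 of the 6 reached 4-fold, the widest range being 3.56-fold for miR-376b. With dim probes kept at a floor 2 of the 6 did, and in the other settings of scaling and signal 5 or 6 did. miR-376b had levels of 4.59, 5.83, 7.59, 6.81, 6.65, 5.04 and 6.32 in T1 to T7 and a range of 7.96-fold. T3 was the highest tumour and T1 and T6 were the lowest, with T4 and T5 above T2. miR-136 ran 5.65, 6.82, 8.12, 7.48, 7.52, 5.54 and 6.61, a range of 5.97-fold with T3 highest and T6 and T1 lowest. miR-379, the first microRNA of the large cluster within the region, ran 5.80, 6.94, 8.29, 7.59, 7.73, 5.87 and 7.30, and miR-127 ran 5.17, 5.92, 7.54, 6.95, 7.01, 5.11 and 6.43. Both separate T3, T4 and T5 from T1 and T6 by more than 1 log2 unit, with T2 and T7 between them. miR-377 lay between 4.76 in T1 and 7.08 in T3, a 5.00-fold range.

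Averaged over these 6 members, T3 lay 1.26 above the mean of the 7 tumours, T4 0.64 and T5 0.41, while T1 lay at -1.23 and T6 at -1.10. T7 (0.23) and T2 (-0.21) were intermediate. T1 to T3 lay on the first block of the slide and T4 to T7 on the second. The 75th percentile before scaling was 837.9, 460.7, 680.1, 407.8, 402.4, 604 and 576.6 in T1 to T7. The array of T3 had 601 outlier spots, against 184 (T2) to 257 (T7) on the others, and the largest median spread between spots (7.22%). Whether block, signal or these array differences had a part in the levels was not tested. T3 remained the highest tumour for each of the 6 in 8 of 8 alternative scalings, signals and summaries, whereas the lowest tumour changed between T1, T6 and, for miR-299*, T5. In bulk tissue a lower level may mean fewer cells of a kind or less RNA per cell, which cannot be told apart here.

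**Figure D2:**
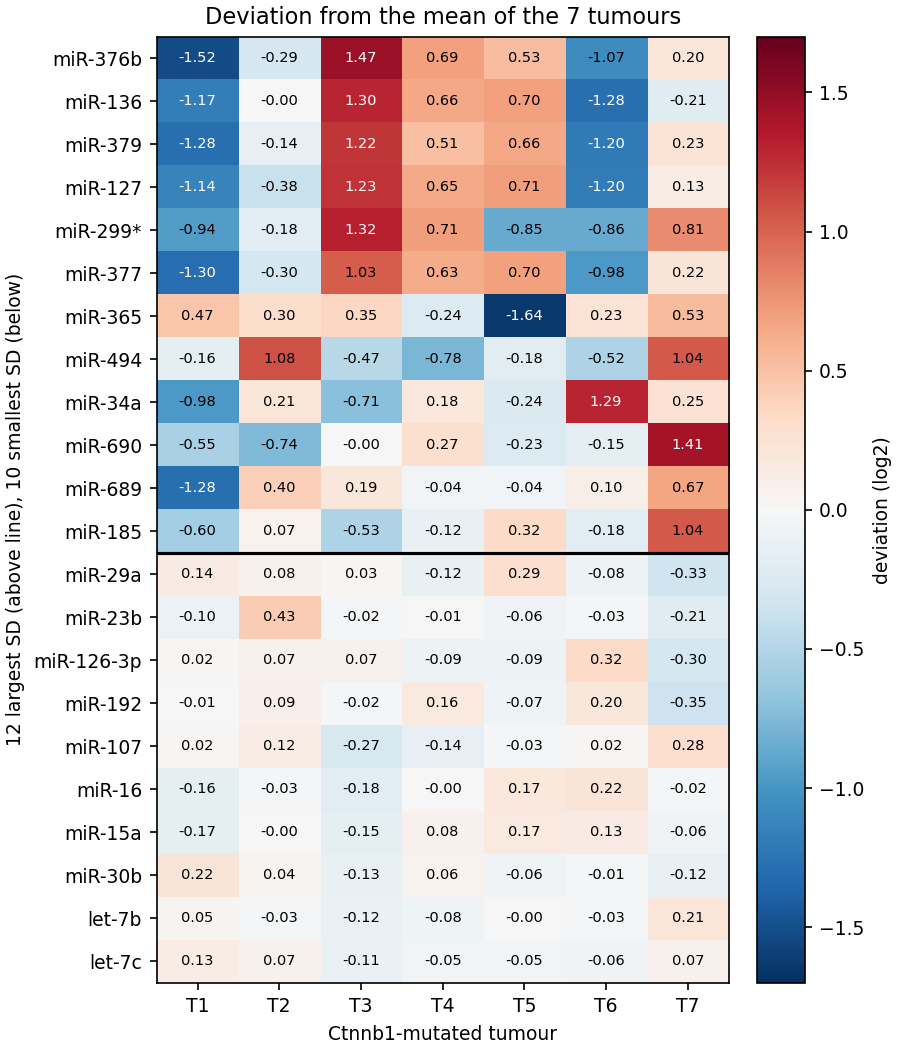
Deviation of each tumour from the mean of the 7 tumours (log2, colour and printed value) for the 12 members with the largest SD above the line and the 10 with the smallest below it. The first 6 rows, all from Dlk1-Dio3, are high in T3 and T4 and low in T1 and T6; T5 is high for 5 of them and low for miR-299*.

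The microRNAs of the region that were too dim to be members were most often detected in T3 and least often in T1 and T6. RefSeq places 58 hairpins between Dlk1 and Dio3, and 70 microRNAs of the array come from them. Of these, 7 were members and 16 were detected in 1 to 6 tumours. All 16 were detected in T3, 10 in T7, 9 in T4, 6 in T2 and in T5, 3 in T1 and 1 in T6. The count in T3 is in part fixed by how the 16 entered, since 6 of them were detected in T3 alone; the other 10 were detected in 2 to 6 tumours. T7 stood above T4 and T5 in this count and below them in the mean of the 6 members. The lowest detected level differed between arrays (log2). It was 4.10 in T1, 4.44 in T3, 4.75 in T7, 4.77 in T2 and 4.82 in T6, but 5.23 in T4 and 5.34 in T5. Counts of detected microRNAs therefore do not rest on 1 limit, and a signal counted in T1 or T3 may not count in T4 or T5. The other 43 microRNAs detected in 1 to 6 tumours were spread differently: 28 were detected in T1 and in T6, 25 in T7, 21 in T2, 19 in T3, 11 in T4 and 7 in T5. T1 and T6, the tumours with the fewest detected microRNAs from the region, had the highest counts outside it. The count in T1 is also in part fixed by entry. Of the 12 others detected in 1 tumour only, 7 were detected in T1 and 1 in T6.

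The likeness spanned the gap between the 2 groups of members in the region. By their RefSeq hairpins (GRCm38.p6, plus strand), miR-127 (chr12:109592846-109592915) and miR-136 (chr12:109595327-109595388), which lie antisense to the retrotransposon-derived gene Rtl1, are 2.41 kb apart. miR-379 (chr12:109709060-109709125) begins 114 kb beyond miR-136, and miR-377 (chr12:109740510-109740577) lies a further 31.4 kb on. Across that gap miR-127 and miR-379 gave the highest correlation of any 2 members over the 7 tumours, r = 0.990 (exact permutation p = 0.000397, adjusted p = 0.188; Spearman's rho = 0.964, exact p = 0.00278, adjusted p = 0.342). Without the 2 tumours farthest from the median of miR-127, r was 0.985. For every pair below, the 2 farthest tumours are likewise those farthest from the median of the first-named microRNA. Tumours extreme for the second-named microRNA may therefore remain. miR-377 and miR-379 ranked the tumours identically (r = 0.989, exact p = 0.000198, adjusted p = 0.188; rho = 1, exact p = 0.000397, adjusted p = 0.330; r = 0.966 without the 2 farthest tumours). The next pairs in the ranking from this region were miR-127 and miR-377 (r = 0.989), miR-376b and miR-377 (0.987), miR-376b and miR-379 (0.987), miR-127 and miR-376b (0.982) and miR-136 and miR-379 (0.977).

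Neither value passed a threshold of 0.05 after adjustment, and nor did any other of the 3321 pairs of members at this number of tumours. Correlations were tested by exact permutation with all pairings of the 7 values, for which the smallest p is 0.000198, and Benjamini-Hochberg adjustment ran over all pairs. A pair can then pass only if many pairs lie at or near that smallest p, and 2 pairs were at it. In this exact permutation test 0 of 3321 pairs (0%) passed, the smallest adjusted p being 0.188, shared by 14 pairs; 322 pairs had an unadjusted p under 0.05 (9.7%), 224 of them with r above 0 (6.74%) and 98 below (2.95%). With Spearman's rho 0 pairs passed and 263 had an unadjusted p under 0.05. The classes of related pairs are therefore described by their counts and medians beside those of all pairs.

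Over all 3321 pairs the median r was 0.06 and 170 pairs (5.12%) had r over 0.8. The 15 pairs among the 6 Dlk1-Dio3 members other than miR-494 had a median r of 0.976, from 0.663 to 0.990. Of these, 10 had r over 0.8 and 11 an unadjusted exact p under 0.05. Pairs with miR-494 were counted apart, a choice made with earlier results of these data known. These 6 pairs had a median of -0.126 and 0 had r over 0.8, so 0.976 does not describe all 7 members of the region. The 33 pairs of neighbours from other genomic clusters had a median of 0.758, with 32 above 0, 15 over 0.8 and 14 with an unadjusted exact p under 0.05. The 44 pairs that share a seed but no cluster had a median of 0.263, with 33 above 0 and 3 over 0.8. For the 3222 pairs with no known relation the median was 0.050. These include let-7a and miR-125b-5p, although let-7a, miR-100 and miR-125b are a listed cluster. The 33 cluster pairs thus leave this pair out. In T5 let-7a lay at -0.68 from its mean and miR-125b-5p 0.46 above its own. By the class medians, members of 1 cluster lay closer together than seed relatives from separate loci, without a test of that difference. Scaling on all mouse probes, most of them undetected, moved the median of all pairs to 0.391, that of the other clusters to 0.852 and that of the seed relatives to 0.790, so the gap between the last 2 rests on the scaling; with quantile scaling they were 0.698 and -0.0102.

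**Figure D3:**
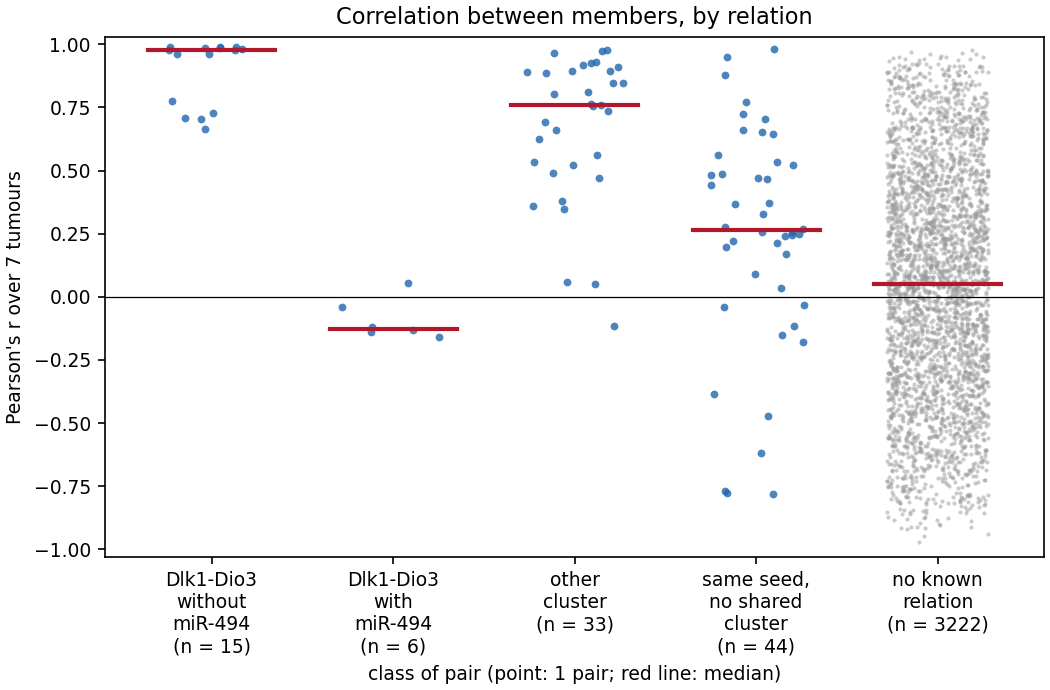
Pearson's r over the 7 tumours (vertical axis) for each pair of members, grouped by relation, with the class medians as red lines. The 15 pairs of Dlk1-Dio3 members without miR-494 have a median of 0.976 and the 6 pairs with miR-494, counted apart, -0.126. The 33 pairs from other clusters have 0.758, the 44 seed relatives from separate loci 0.263 and the 3222 pairs with no known relation 0.050.

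Within Dlk1-Dio3, 2 members departed from the rest. miR-299*, which lies 1.51 kb beyond miR-379, followed the others in 6 tumours but not in T5. Its levels in T1 to T7 were 5.58, 6.34, 7.84, 7.23, 5.67, 5.66 and 7.33. In T5 it lay 0.85 below its mean, among the low tumours, while the other 5 lay between 0.53 and 0.71 above theirs. Its correlations with them ran from 0.663 to 0.777. Without T5, its correlation with miR-377 rose from 0.703 to 0.979. Of the 16 dim microRNAs of the region, 11 were lower in T5 than in T4 and 5 were higher; of the 6 members, 2 were lower. miR-154* had a scaled intensity of 26.9 in T5 against 102.5 in T4 and was not detected in T5, and miR-495 had 13.7 against 39.8. In T1, where the lowest detected level was lower, miR-154* was detected at 22.1. The opposite strand of the miR-154 hairpin had 55.6 in T5 against 47.7 in T4, and miR-300 71.7 against 56.9.

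miR-494, which lies 4.62 kb beyond miR-299* and within the same cluster, did not follow the others. Its levels in T1 to T7 were 6.94, 8.18, 6.63, 6.32, 6.92, 6.58 and 8.14, so that T2 and T7 stood more than 1 log2 unit above the other 5 tumours. Its 6 correlations with the region's members lay between -0.161 and 0.054, with a median of -0.126. The member most like it was miR-107 (r = 0.811, exact permutation p = 0.0290). Its 2 probes had r = 0.972 with each other over the tumours.

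**Figure D4:**
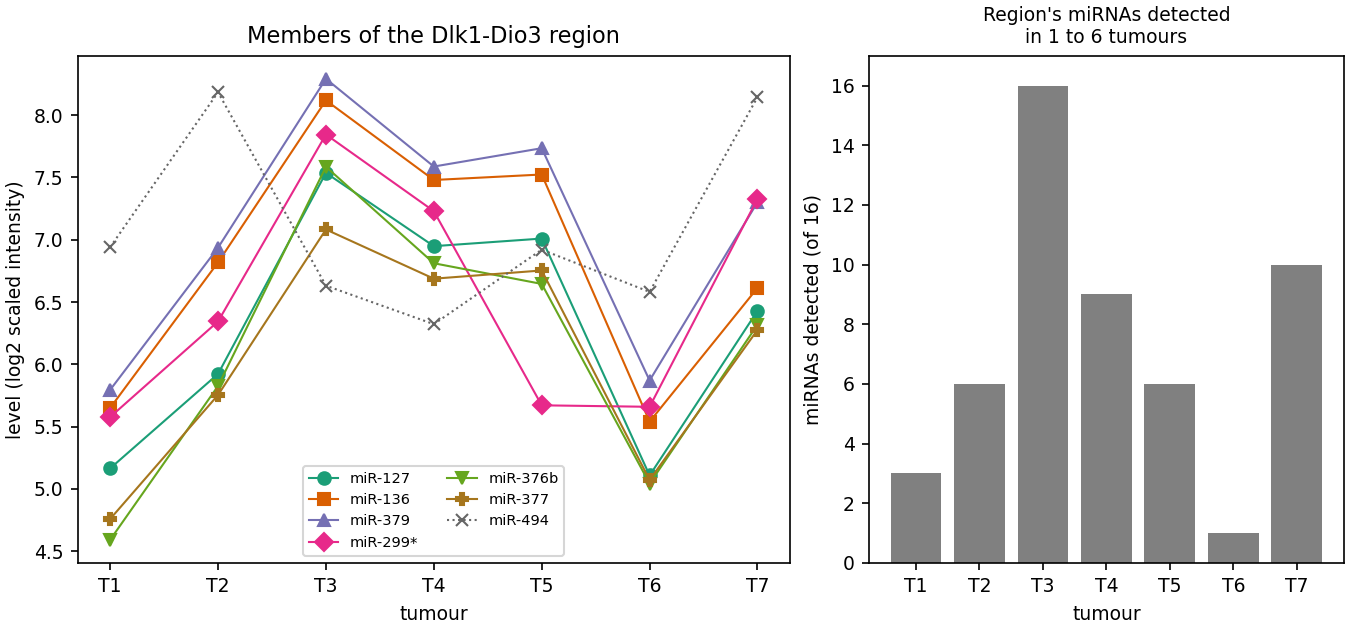
Left, levels (log2 scaled intensity) of the 7 Dlk1-Dio3 members in tumours T1 to T7, with lines joining 1 microRNA for reading only; 5 run together, miR-299* falls away in T5 and miR-494 is high in T2 and T7. Right, the number of the 16 dimmer microRNAs of the region detected in each tumour, from 1 in T6 to 16 in T3.

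The leading axis of variation was largely this region. The first principal component of the 82 members held 39.8% of the variance, with scores of 3.36 for T3 and 1.54 for both T4 and T5 against -3.16 for T1 and -3.52 for T6. The 6 Dlk1-Dio3 members, 7.32% of the members, carried 33.5% of the total variance and 76.4% of this component. The largest loadings below 0 belonged to miR-20a (-0.15) and miR-20b (-0.13), followed by miR-199a-3p, of mesenchymal cells, miR-34a and miR-365. The second component (26.2%) set T5 (-3.33) against T7 (3.26), and the third (18.2%) set T5 (2.42) against T1 (-2.27). With the 7 Dlk1-Dio3 members left out, the first component of the other 75 members held 37.7% of the variance and again ran from T5 (-3.05) to T7 (3.01).

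Outside the imprinted region, the most variable members differed in the tumours at their ends, although T7 was often highest and T1 often lowest. miR-365, which shares a locus with miR-193, had its lowest level of 5.67 in T5 against a median of 7.61 and a highest of 7.84 in T7. T5 alone was low, with the next lowest tumour, T4, at 7.07. miR-34a, a direct transcriptional target of p53, ran from 5.93 in T1 and 6.20 in T3 to 8.21 in T6, a 4.83-fold range with a median of 7.09. T6 stood apart from the next highest tumour, T7 at 7.16, while T1 and T3 were low. miR-690 ran from 6.05 in T2 to 8.21 in T7 with a median of 6.64, and T7 alone was high. miR-689 had its lowest level of 5.75 in T1, with the others between 6.98 and 7.70. miR-185 ran from 5.09 in T1 to 6.73 in T7 with a median of 5.56. T7 was thus the highest tumour for miR-690, miR-689 and miR-185. miR-21, often raised in tumours and among the brightest members, ran from 12.15 in T1 to 13.50 in T7 with a median of 12.55 (SD 0.50), while miR-122 had its lowest level, 13.20, in T7 (SD 0.36).

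Some members hardly differed between tumours. let-7c varied least, from 9.19 to 9.43 with a median of 9.25 (SD 0.09), followed by let-7b from 9.18 to 9.50 (SD 0.11), miR-30b (0.12), and the cell-cycle regulators miR-15a (0.13) and miR-16 (0.15). The next were miR-107 (0.18), a microRNA encoded in a pantothenate kinase gene, miR-192 (0.18), of hepatocytes, miR-126-3p (0.19), of endothelium, miR-23b (0.20) and miR-29a (0.20). The range of let-7c was 1.18-fold, and that of miR-29a 1.54-fold. This end of the ranking was less firm than the other. Over 16 alternatives the 12 most variable members shared 9 to 12 names with those given here and the 10 least variable shared 2 to 10, the 2 under scaling on all mouse probes, where let-7c had an SD of 0.38 and let-7b of 0.36.

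In other clusters, neighbours mostly moved together. miR-193 and miR-365, whose hairpins lie 14.4 kb apart on chromosome 11 (miR-365 is also encoded at a second locus), had r = 0.925 (exact permutation p = 0.0119, adjusted p = 0.341; rho = 0.679, exact p = 0.110, adjusted p = 0.712). miR-193 had levels of 8.13, 8.24, 8.10, 7.47, 6.79, 7.76 and 7.83 in T1 to T7, so that T5 was lowest here too and T4 next. Without the 2 farthest tumours r was 0.802. miR-23a and miR-27a, 0.080 kb apart on chromosome 8, had r = 0.977 (exact p = 0.00198, adjusted p = 0.253; rho = 0.929, exact p = 0.00675, adjusted p = 0.467; r = 0.969 without the 2 farthest). miR-27a was high in T7 (8.18) and low in T1 (6.97), T6 (7.04) and T4 (7.20), with the other 3 tumours between 7.79 and 7.87. miR-106b and miR-93, from an intron of the replication gene Mcm7, had r = 0.973 (exact p = 0.000794, adjusted p = 0.188; rho = 0.893, exact p = 0.0123, adjusted p = 0.481; r = 0.922 without the 2 farthest). Both were highest in T6 (7.12 and 6.60) and lowest in T3 (5.99 and 5.46).

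miR-144 and miR-451, the red blood cell cluster, lie next to each other and had r = 0.889 (exact permutation p = 0.00615, adjusted p = 0.341; rho = 0.929, exact p = 0.00675, adjusted p = 0.467; r = 0.891 without the 2 farthest). T5 (7.93 and 12.03) and T6 (7.54 and 12.16) were high and T2 (6.66 and 11.08) was low. miR-195 and miR-497 had r = 0.912 (exact p = 0.000595, adjusted p = 0.188; rho = 0.964, exact p = 0.00278, adjusted p = 0.342; r = 0.949 without the 2 farthest), with T5 highest for both. miR-15a and miR-16, which come from 1 cluster while a second copy of miR-16 lies beside miR-15b, had r = 0.931 (exact p = 0.00516, adjusted p = 0.341; rho = 0.893, exact p = 0.0123, adjusted p = 0.481; r = 0.890 without the 2 farthest), which was 0.573 with quantile scaling and 0.373 in the deposited values. miR-15b and miR-16 had r = 0.378. In the cluster from miR-17 to miR-92a, which drives proliferation, the 6 pairs of the 4 measured members ran from r = 0.470 for miR-19b and miR-20a to 0.886 for miR-19b and miR-92a. The value of 0.813 for miR-19a and miR-20a was 0.484 without T6 and 0.174 without the 2 farthest tumours. These 4 averaged 0.61 above the mean in T6 and -0.36 in T3.

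The remaining clusters ranged from alike to unrelated in their tumours. miR-25, the third microRNA of the Mcm7 intron, had r = 0.896 with both miR-106b and miR-93 and was highest in T6 (6.90). miR-24, which is encoded beside both miR-23a and miR-23b, had r = 0.845 with miR-27a and 0.757 with miR-23a against 0.533 with miR-27b and 0.058 with miR-23b. miR-23b and miR-27b had r = 0.758 and were both highest in T2 (8.56 and 8.09). In the miR-29 family, which represses collagen genes, miR-29a, miR-29b and miR-29c were all highest in T5 (9.76, 9.44 and 9.46), and their pairs ran from r = 0.348 to 0.655. miR-30a and miR-30e were highest in T5 too (8.38 and 7.63; r = 0.877, but 0.057 without the 2 farthest tumours), while miR-30c was highest in T1 (8.30) and had r = 0.626 with miR-30a and 0.492 with miR-30e.

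Not every cluster held together. miR-192 and miR-194, both hepatocyte microRNAs, lie 0.116 kb apart on chromosome 19 and had r = 0.358 (exact permutation p = 0.381, adjusted p = 0.849; rho = 0.286, exact p = 0.556, adjusted p = 0.945; r = -0.541 without the 2 farthest). miR-194 was high in T5 (8.70) and low in T7 (7.21), whereas miR-192 was low in T7 (10.25) and lay between 10.53 and 10.80 elsewhere. Without 1 tumour in turn, their correlation ran from -0.501 to 0.914. miR-30b and miR-30d had r = 0.052, with miR-30d high in T5 (7.17, the others between 5.77 and 6.24) and miR-30b at 7.25 in T5. The SD of miR-30b was 1.58 times its standard error between spots, the smallest ratio of any member. This r therefore says little on whether miR-30b and miR-30d move together. let-7c and miR-99a, which is the clustered partner of 1 of the let-7c genes, had r = -0.115. miR-99a ran from 6.58 in T7 to 7.66 in T5, while let-7c hardly moved.

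The let-7 family, which represses growth genes including the Ras genes, did not vary as 1 group. let-7a, let-7f and let-7d, encoded within 2.07 kb of 1 another on chromosome 13, were low in T5: let-7f at 9.54 against 10.65 to 10.87 in the other tumours, let-7a at 9.59 against 10.25 to 10.49, and let-7d at 8.17 against 8.75 to 9.13. let-7a and let-7f had r = 0.966 (exact permutation p = 0.0373, adjusted p = 0.488; rho = 0.714, exact p = 0.0881, adjusted p = 0.684; r = 0.665 without the 2 farthest). This value rested on T5, without which it was 0.321. T5 was the lowest tumour for each of these 3 in 8 of 8 alternatives. let-7f also has a second locus, and let-7a is also listed in a cluster with miR-100 and miR-125b.

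Members with near-identical sequences ranged from alike to opposed over the tumours. Counted from the 5′ end, let-7a differs from let-7f by G12A and from let-7c by A19G, 1 base each, yet let-7a and let-7c had r = 0.220. let-7c and let-7b differ by A17G and had r = 0.662. let-7g was also lowest in T5 (8.95, the others 9.21 to 9.59), while let-7i was highest in T5 and T6 (8.12 in T5), and the 2 had r = -0.771 (exact permutation p = 0.0439, adjusted p = 0.505; rho = -0.786, exact p = 0.0480, adjusted p = 0.606; r = -0.918 without the 2 farthest). Under scaling on all mouse probes that correlation turned to 0.602. let-7e was highest in T2 (6.61). Over the 28 pairs of the 8 measured let-7 members the median r was 0.248. Probes for sequences that differ by 1 base may take up part of each other's signal, which was not tested.

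The pair miR-26a and miR-26b, from introns of the Ctdsp phosphatase genes, went opposite ways in T5. Their seeds are the same. They differ by C11U and at the 3′ end, where miR-26a runs to 22 bases and miR-26b to 21. miR-26b had levels of 9.22, 9.08, 9.44, 9.73, 8.43, 9.60 and 9.59 in T1 to T7, with T5 lowest. miR-26a had 8.59, 8.27, 8.25, 8.25, 9.02, 8.29 and 7.66, with T5 highest and T7 lowest. Their correlation was -0.782 (exact permutation p = 0.0540, adjusted p = 0.516; rho = -0.643, exact p = 0.139, adjusted p = 0.749; r = -0.412 without the 2 farthest) and -0.05 under scaling on all mouse probes. miR-26b and miR-30d had the lowest r of all pairs, -0.970 (exact p = 0.00397, adjusted p = 0.314; rho = -0.821, exact p = 0.0341, adjusted p = 0.550; r = -0.849 without the 2 farthest), which was -0.43 under that scaling.

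miR-20a and miR-20b, cell-cycle microRNAs with the seed AAAGUGC, come from chromosomes 14 and X and differ by U1C and U10C. They had the highest r of any pair from separate clusters, 0.983 (exact permutation p = 0.00159, adjusted p = 0.229; rho = 0.893, exact p = 0.0123, adjusted p = 0.481; r = 0.989 without the 2 farthest), with T6 highest (7.91 and 6.48). Shared signal between these probes was not tested either. Their seed relatives miR-106b and miR-93 were also highest in T6 but differed from them in T5, where miR-106b (6.88) was the second highest value and miR-20a (6.52) the lowest. miR-103 and miR-107, which differ by G22C, had r = 0.950. miR-15b and miR-195 share a seed and had r = -0.778, with miR-15b lowest and miR-195 highest in T5. The other seed pairs from separate loci had r = 0.644 (miR-25 and miR-92a), 0.470 (miR-27a and miR-27b), 0.369 (miR-130a and miR-301a) and 0.091 (miR-148a and miR-148b).

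Only 1 hairpin had both strands among the members. miR-140 and miR-140*, from an intron of Wwp2, had r = 0.218 (exact permutation p = 0.635, adjusted p = 0.930; rho = 0.357, exact p = 0.444, adjusted p = 0.903; r = -0.430 without the 2 farthest), and the value ran from -0.256 with quantile scaling to 0.744 with normexp background, and was 0.839 without T5. miR-140 had its highest level in T2 (6.66) and miR-140* in T5 (6.62). Both were lowest in T1 (5.72 and 5.79).

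**Figure D5:**
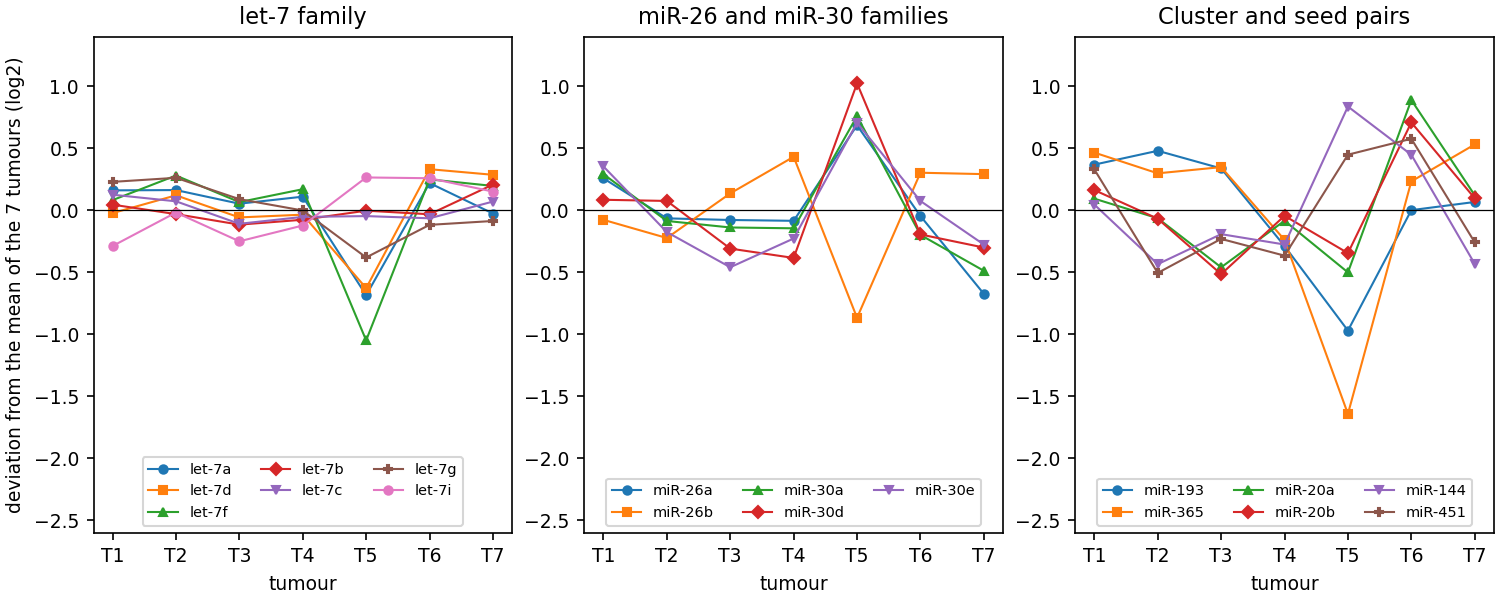
Deviation of each tumour from the mean of the 7 tumours (log2, vertical axis) for let-7 members (left), miR-26 and miR-30 members (middle) and pairs from 1 cluster or seed (right), with lines for reading only. In T5, let-7a, let-7d, let-7f, miR-26b, miR-193 and miR-365 lie below the mean and miR-26a, miR-30a, miR-30d and miR-30e above it.

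The tumours differed in how often they stood at an end. T5 was the highest for 23 members and the lowest for 11. T7 was the highest for 15 and the lowest for 18, T6 the highest for 21 and the lowest for 3, T1 the highest for 5 and the lowest for 25. These counts hold for the main scaling only. In T1 the median member moved by -0.03 with normexp background and by 0.19 in the deposited values. T1 stayed the lowest tumour in 8 of 8 alternatives for miR-689, but in 5 for miR-21 and in 3 for miR-185. In T5 miR-365 lay at -1.64 from its mean, let-7f at -1.05, miR-193 at -0.97 and miR-26b at -0.87, while miR-30d lay 1.02, miR-144 0.84, miR-194 0.82 and miR-30a 0.76 above theirs. The array of T5 also had the fewest detected microRNAs (95) and the lowest 75th percentile before scaling (402.4, with 407.8 in T4). The red blood cell members averaged 0.64 above the mean in T5 and 0.51 in T6, the leukocyte members 0.46 in T6 and 0.49 in T7, and the hepatocyte members 0.33 in T5 and -0.35 in T7. The part of cell content or signal in these deviations was not tested. Over the 70 members with a sequence, the correlation of the T5 deviation with GC content was 0.193, a description across members. Under scaling on all mouse probes the median member moved by -0.46 in T5 and by 0.49 in T1; miR-365, miR-193, miR-26b, let-7a, let-7d and let-7f kept T5 as their lowest tumour there, and miR-30d (0.57) and miR-26a (0.23) stayed above their means in T5 but with T1 highest.

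Among cell-type members, miR-142-3p, of leukocytes, and miR-301a had r = 0.979 (exact permutation p = 0.00119, adjusted p = 0.229; rho = 0.929, exact p = 0.00675, adjusted p = 0.467; r = 0.967 without the 2 farthest), the highest among pairs with no known relation. miR-142-3p ran from 7.60 in T3 to 8.57 in T6 with a median of 8.14, T6 and T7 (8.56) being high and T1 and T3 low. miR-148a, a hepatocyte microRNA, and miR-451 had r = -0.947 (exact p = 0.0111, adjusted p = 0.341; rho = -0.857, exact p = 0.0238, adjusted p = 0.517; r = -0.989 without the 2 farthest), which was -0.05 under scaling on all mouse probes. miR-148a was low in T1 (9.43), T6 (9.46) and T5 (9.61), the 3 tumours in which miR-451 was high (11.91, 12.16 and 12.03). The other 3 of the 5 lowest correlations were let-7f and miR-497 (r = -0.941, exact permutation p = 0.0308, adjusted p = 0.455; rho = -0.571, exact p = 0.200, adjusted p = 0.819), miR-22 and miR-365 (r = -0.918, exact p = 0.0226, adjusted p = 0.421; rho = -0.786, exact p = 0.0480, adjusted p = 0.606) and miR-148a and miR-19b (r = -0.917, exact p = 0.0103, adjusted p = 0.341; rho = -0.786, exact p = 0.0480, adjusted p = 0.606). The value for let-7f and miR-497 was -0.397 without T5 and -0.213 without the 2 farthest tumours, and that for miR-22 and miR-365 was -0.584 without T5. Under scaling on all mouse probes these 3 were -0.09, 0.07 and 0.10.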

How the data were processed

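Total RNA (25 ng) was end-labelled with Cy3 and hybridised to 1-colour Agilent mouse microRNA arrays, per the labels' protocols. The deposited intensity values are background-subtracted spot signals from Feature Extraction 10.7.3.1, per the file headers, not normalised between arrays. The deposited table of log2 values, for which the submitters' processing notes name R 2.14.1, served as an alternative; its scale was read from its values, and how it was normalised was not stated there. Outlier spots were left out, spots of a probe averaged, and each array divided by its 75th percentile over the 129 mouse probes detected in all 7 tumours and multiplied by their mean. A member's level is the mean log2 of its probes detected in all 7. Correlations were tested by exact two-sided permutation with Benjamini-Hochberg adjustment over all pairs (Python 3.11.15, numpy 2.4.6), checked on simulated data; limma 3.58.1 in R 4.3.3 gave the normexp alternative. Named are the 12 largest and 10 smallest SDs, clusters, seed families, strands, the 10 highest and 5 lowest correlations and the largest loadings. Clusters are listed neighbours or hairpins within 10 kb, but the listed neighbours let-7a and miR-125b-5p were left out. Array names were matched to current names from knowledge of the nomenclature. Members and lists were chosen with earlier results of these data known. Precision is limited by the number of arrays and the spread between spots of a probe (5.37% to 7.22%). Alternatives were other scalings, background, signals, filters and each tumour left out. Array names stand as given. The p-values concern the association of 2 microRNAs over these 7 samples, and the spread between samples was not tested.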

Additional observations from a re-analysis of the deposited data

Results flagged for a closer look

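In 8 of the 55 members examined, 1 tumour stood far from the other 6, with a gap to its nearest neighbour, as a fraction of the whole range, above Dixon's critical value for 7 samples. By chance about 1 in 20 groups shows such a gap when groups are taken regardless of their values, and members of 1 cluster are not independent. The 55 were a part of the 82 members. Members were named here partly for their SD or correlations in these data, which 1 far tumour can change. The count of 8 can therefore not be set against that rate. The fractions were 0.839 for let-7f, 0.728 for let-7a, 0.595 for let-7d and 0.646 for miR-365, all with T5 lowest, and 0.667 for miR-30d and 0.65 for miR-497, both with T5 highest. For miR-23b it was 0.69, with T2 highest, and for miR-689 0.633, with T1 lowest. Without T5 the correlation of let-7a and let-7f fell from 0.966 to 0.321.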

How the results depend on the processing

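No single pair passed the threshold under any alternative (1721 values for 105 named pairs), and in none did an adjusted p of any pair fall under 0.05. A pair could pass only if a number of pairs lay at or near the smallest possible p, which is larger with 1 tumour left out. This outcome is therefore no measure of stability. The sign of r turned for 1 to 16 of the 105 named pairs in an alternative, most with the deposited values. The 6 Dlk1-Dio3 members were the 6 most variable in 11 of 16 alternatives, and 3 of the 6 were when dim probes were kept at a floor. The median SD of 0.338 became 0.410 with scaling on all mouse probes, 0.253 with normexp background and 0.274 as a median absolute deviation; without 1 tumour it lay between 0.295 and 0.361. Members with a 2-fold range, 41, became 20 with normexp, 15 among the 41 brighter members, 55 with scaling on all mouse probes, 46 with the deposited values, and without 1 tumour between 27 and 40, the lowest without T5. Members with a 4-fold range, 9, became 0 with normexp, 5 with dim probes kept at a floor, 1 among the brighter members and 12 with the deposited values, and without 1 tumour between 4 and 9, the lowest without T3. The share of pairs with an unadjusted exact p under 0.05, 9.7%, became 15.1% with scaling on all mouse probes and lay between 7.68% and 9.61% without 1 tumour. The median r of the Dlk1-Dio3 pairs without miR-494, 0.976, became 0.954 with the total gene signal, 0.949 with the deposited values and 0.929 as Spearman's rho. That of seed relatives from separate loci, 0.263, became 0.790 with scaling on all mouse probes, 0.382 with scaling on the median and -0.0102 with quantile scaling. The median over all pairs, 0.06, became 0.094 with scaling on probes detected on all 16 arrays, 0.391 on all mouse probes, -0.0122 with quantile scaling, 0.166 with normexp, 0.024 with the total gene signal, 8.573e-05 with the deposited values and 0.036 among brighter members, and 0.058 to 0.087 without 1 tumour. The cause was not tested. With the Dlk1-Dio3 members left out, chosen after seeing the data, the median SD was 0.316. No paired analysis was possible because only 1 group was described. Signal over background limits the members to 82 of 566 microRNAs.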
